A study of Rattus norvegicus with 6 samples.

Results

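The 10 mitochondrial beta-oxidation enzymes Acadvl, Acadl, Acadm, Acads, Hadha, Hadhb, Echs1, Hadh, Acaa2 and Decr1 were followed in rat tibialis anterior, the ankle-lifting muscle of the shin, after its nerve had been cut and repaired. They were chosen by name, as all probe sets annotated with only 1 of these symbols, and make up 10 of the 10411 genes named on the array. The 10 genes had 11 probe sets, and 10 of these, 1 per gene, passed the filter on dim probe sets (a mean intensity above about 42.4). The remaining probe set, a second one for Hadh, lay between 5.3 and 7.4 ipsilaterally and between 6.5 and 7.2 contralaterally and was not tested.

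The ipsilateral group was the tibialis anterior of 3 male Wistar rats, aged 8 weeks, whose peroneal nerve had been divided and sewn to the biceps femoris, with its stumps joined to each other 4 weeks later and a survival of 8 weeks. The contralateral group was the same muscle of the other leg of the same 3 rats, so both groups share the animal, the operation and the ketamine and xylazine anaesthesia, and no animal without an operation enters the comparison. The rats carry the numbers 4, 5 and 6, and each muscle was hybridised to 1 array, which gave 3 arrays per group. Values are probe set intensities on a linear scale. The number of arrays limits the precision.

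Beta-oxidation is the mitochondrial spiral that shortens fatty acids from the carboxyl end and releases acetyl-CoA. Each turn runs through an acyl-CoA dehydrogenase, an enoyl-CoA hydratase, a hydroxyacyl-CoA dehydrogenase and a thiolase, and different enzymes take over as the chain becomes shorter. In skeletal muscle the pathway is most developed in oxidative fibres, and its genes are known targets of the nuclear receptors PPAR-alpha, PPAR-delta and ERR-alpha.

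Promoter sequences were matched for 7 of the 10 members, from RefSeq on build GRCr8, each with 250 bases before and 50 bases after the annotated start; none was matched for Acadl, Acaa2 and Decr1. The sequences of 4 members are shown, 3 because they hold the letters AGGTCA, the hexamer that these receptors are known to bind, and Hadha because it shares its promoter region with Hadhb. Hadha and Hadhb encode the subunits of a single protein, lie head to head on chromosome 6 and have starts 301 bases apart, so that 200 bases of their windows are the same DNA read from opposite strands. Capitals mark AGGTCA or its reverse complement TGACCT.
Acadvl, chr10:55236656-55236955, minus strand: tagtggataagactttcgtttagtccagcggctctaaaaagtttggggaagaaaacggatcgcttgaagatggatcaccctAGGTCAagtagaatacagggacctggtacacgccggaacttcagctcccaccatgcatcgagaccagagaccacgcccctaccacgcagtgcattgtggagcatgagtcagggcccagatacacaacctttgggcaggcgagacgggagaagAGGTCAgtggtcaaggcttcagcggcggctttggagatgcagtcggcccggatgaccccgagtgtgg
Hadha, chr6:31907551-31907850, plus strand: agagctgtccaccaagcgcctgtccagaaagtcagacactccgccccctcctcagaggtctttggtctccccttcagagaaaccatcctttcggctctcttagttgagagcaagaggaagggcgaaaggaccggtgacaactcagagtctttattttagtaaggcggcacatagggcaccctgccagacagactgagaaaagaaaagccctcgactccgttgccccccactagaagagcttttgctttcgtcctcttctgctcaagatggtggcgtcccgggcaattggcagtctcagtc
Hadhb, chr6:31907451-31907750, minus strand: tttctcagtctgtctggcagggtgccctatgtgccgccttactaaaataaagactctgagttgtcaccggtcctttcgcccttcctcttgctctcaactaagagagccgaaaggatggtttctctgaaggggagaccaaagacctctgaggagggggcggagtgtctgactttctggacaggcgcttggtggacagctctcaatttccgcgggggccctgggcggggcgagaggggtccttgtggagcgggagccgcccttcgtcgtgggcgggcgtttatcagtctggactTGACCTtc
Echs1, chr1:204333457-204333756, minus strand: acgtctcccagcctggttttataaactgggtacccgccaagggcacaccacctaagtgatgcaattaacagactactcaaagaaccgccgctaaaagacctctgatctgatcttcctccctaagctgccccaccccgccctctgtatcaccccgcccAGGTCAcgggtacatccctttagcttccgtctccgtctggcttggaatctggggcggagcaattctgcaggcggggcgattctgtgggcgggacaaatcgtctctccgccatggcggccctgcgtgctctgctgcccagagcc

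The hexamer began 169 and 17 bases before the start of Acadvl, 93 bases before the start of Echs1 and, on the opposite strand, 42 bases after the start of Hadhb. It occurred on either strand in 16.2% of 33469 promoter windows of the same length, and in 3 of the 7 members. The longer AAGGTCA, which contains it, occurred in 4.61% of all windows and among the members in Hadhb. These matches describe letters in the sequence and not binding.

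No difference between ipsilateral and contralateral muscle was established for any of the 10 enzymes. For most of them the direction depended on the animal. In animals 5 and 6 most transcripts were higher on the operated side, whereas in animal 4 most were lower. The fitted difference was above 0 for 9 of the 10 members, against 4443 of 9519 tested probe sets, and below 0 for Echs1. The members had folds of 0.87 to 1.29 and a median log2 difference of 0.16. None of these differences passed the test: in limma's paired fit, adjusted with Benjamini-Hochberg over all 9519 tested probe sets, the members' adjusted p ran from 0.776 to 0.995. Each difference is the log2 ratio of the ipsilateral to the contralateral intensity, with a pseudocount of 15.8 added to both. It carries the moderated standard error (SE) of limma's fit to 3 pairs. This SE borrows variance from all tested probe sets, so it is not the spread of a gene's own pairs. This scale understates the changes of dim genes, and in whole muscle fewer cells of a type and less RNA per cell cannot be told apart. Leaving out animals 4, 5 and 6 in turn gave medians of 0.29, 0.08 and 0.12 over the members. The median was 0.39 unpaired without ipsilateral 4, and -0.08 unpaired without contralateral 4 and ipsilateral 6, which had a high actin ratio.

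Over the whole array 0 of 9519 probe sets (0.0%) passed the adjusted threshold of 0.05, in limma, and 0 of the 10 members did. The unadjusted p was under 0.05 for 605 probe sets (6.36%) and for 0 members. An exact sign-flip permutation test over 3 pairs cannot give a two-sided p below 0.25 and was not used for single genes. The 95% intervals of all 10 members included 0, and their outermost bounds corresponded to folds of 0.67 and 1.84. In every member the ipsilateral and contralateral intensities overlapped, whereas over the array 4.74% of probe sets had all ipsilateral arrays above all contralateral ones and 5.78% had them below.

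The first step is carried out by acyl-CoA dehydrogenases, which are specific for chain length. Acadvl, which takes very long chains and sits on the inner mitochondrial membrane, had intensities of 544.7, 925.0 and 1185.9 in the ipsilateral muscles of animals 4, 5 and 6, against 578.2, 830.5 and 777.5 contralaterally. Both muscles of animal 4 were the lowest, and ipsilateral 6 stood above the other 5 arrays. The fitted difference was 0.22 (SE 0.17), and animals 4, 5 and 6 gave -0.08, 0.15 and 0.60.

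Acadl, the long-chain dehydrogenase, had 1215.8, 1914.6 and 2031.5 ipsilaterally, against 1153.2, 1092.4 and 1792.6 contralaterally. It was higher on the operated side in all 3 animals, but contralateral 6 exceeded ipsilateral 4, so the groups overlapped. Its difference of 0.35 (SE 0.17) did not pass (limma, adjusted p = 0.776). The size was uneven, at 0.08, 0.80 and 0.18 in animals 4, 5 and 6.

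Acadm, the medium-chain dehydrogenase, had 2227.6, 2709.3 and 3349.5 ipsilaterally, against 2293.7, 2257.2 and 2810.0 contralaterally. The operated side was higher in animals 5 and 6 by almost the same amount, 0.26 and 0.25, and differed by -0.04 in animal 4, which gave 0.16 (SE 0.13). Acads, the short-chain dehydrogenase, had 322.1, 510.6 and 502.8 ipsilaterally, against 291.1, 427.3 and 460.0 contralaterally. Its differences were the most even of the members, 0.14, 0.25 and 0.12 in animals 4, 5 and 6, with an SD of 0.07 between animals. The fitted value was 0.17 (SE 0.15), while the contralateral muscles alone differed with an SD of 0.34.

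**Figure D1:**
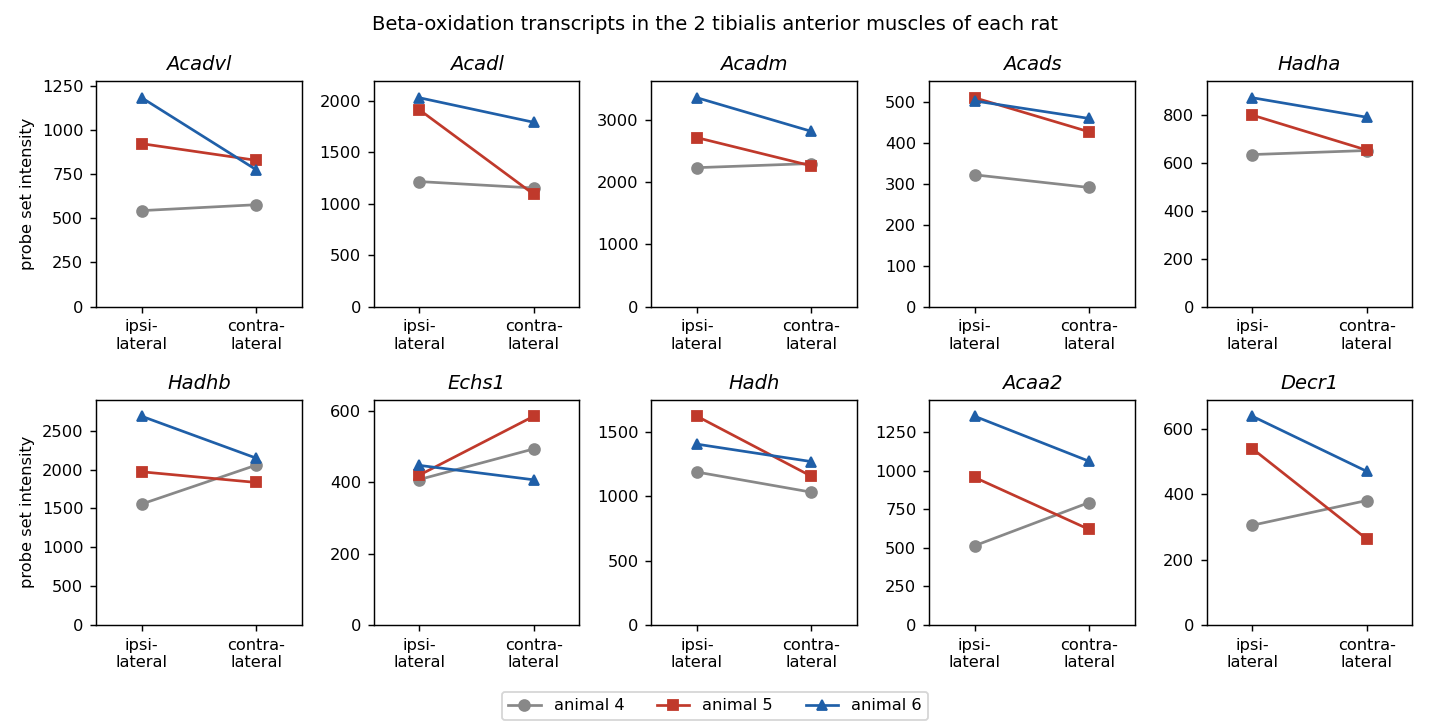
Probe set intensity (linear axis from 0) of each member in the ipsilateral and contralateral tibialis anterior, with a line per animal. Animal 4 has the lowest ipsilateral value for all 10 genes, and no gene separates the groups.

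For long chains the later steps are joined in the mitochondrial trifunctional protein. Its alpha subunit Hadha, which carries the hydratase and the hydroxyacyl-CoA dehydrogenase, had 634.0, 798.6 and 871.1 ipsilaterally, against 650.9, 652.7 and 789.8 contralaterally. Its beta subunit Hadhb, the thiolase, had 1557.2, 1972.4 and 2687.6 ipsilaterally, against 2057.3, 1835.3 and 2149.1 contralaterally. Both had the operated side higher in animals 5 and 6 and lower in animal 4, and both were highest in ipsilateral 6. The difference was 0.13 (SE 0.15) for Hadha and 0.01 (SE 0.16) for Hadhb, and Hadhb was at -0.15 without animal 6. In animal 4 they were apart, with -0.04 for Hadha and -0.40 for Hadhb, and this contrast between the genes was not tested.

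Shorter chains are handled by soluble matrix enzymes. Echs1, the short-chain enoyl-CoA hydratase, had 407.4, 419.7 and 447.0 ipsilaterally, against 493.1, 584.6 and 406.6 contralaterally. The ipsilateral values lay close together, and contralateral 5 was the highest of all 6 arrays. Echs1 had a fitted difference of -0.20 (SE 0.17), from animal values of -0.27, -0.46 and 0.13, and was the 1 member lower in animal 5.

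Hadh, the hydroxyacyl-CoA dehydrogenase for short and medium chains, had 1188.5, 1622.3 and 1405.3 ipsilaterally, against 1032.2, 1155.9 and 1269.8 contralaterally. It was higher on the operated side in all 3 animals, by 0.20, 0.48 and 0.14, and the groups overlapped only through ipsilateral 4 and contralateral 6. The fitted difference was 0.28 (SE 0.14; limma, adjusted p = 0.776).

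Acaa2, the matrix thiolase that ends each turn for short and medium chains, had 514.7, 958.0 and 1355.2 ipsilaterally, against 795.1, 620.8 and 1063.2 contralaterally. The animals went in opposite directions, at -0.61, 0.61 and 0.35 for animals 4, 5 and 6. The fitted difference of 0.12 (SE 0.22) was smaller than the SD of 0.64 between animals, and without animal 5 it was -0.13.

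Decr1, the 2,4-dienoyl-CoA reductase for unsaturated fatty acids, had 305.7, 540.4 and 639.7 ipsilaterally, against 381.5, 263.6 and 470.9 contralaterally. It had the largest fitted difference of the members, 0.37 (SE 0.23), and the widest spread between animals, with values of -0.31, 0.99 and 0.43 (SD 0.65). In animal 5 the ratio of ipsilateral to contralateral intensity was 2.05, the highest of any member in any animal. Its adjusted p was 0.809 with all animals and 0.0575 without animal 4, where the difference was 0.71, in limma's fit; without animal 5 the difference was 0.06.

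**Figure D2:**
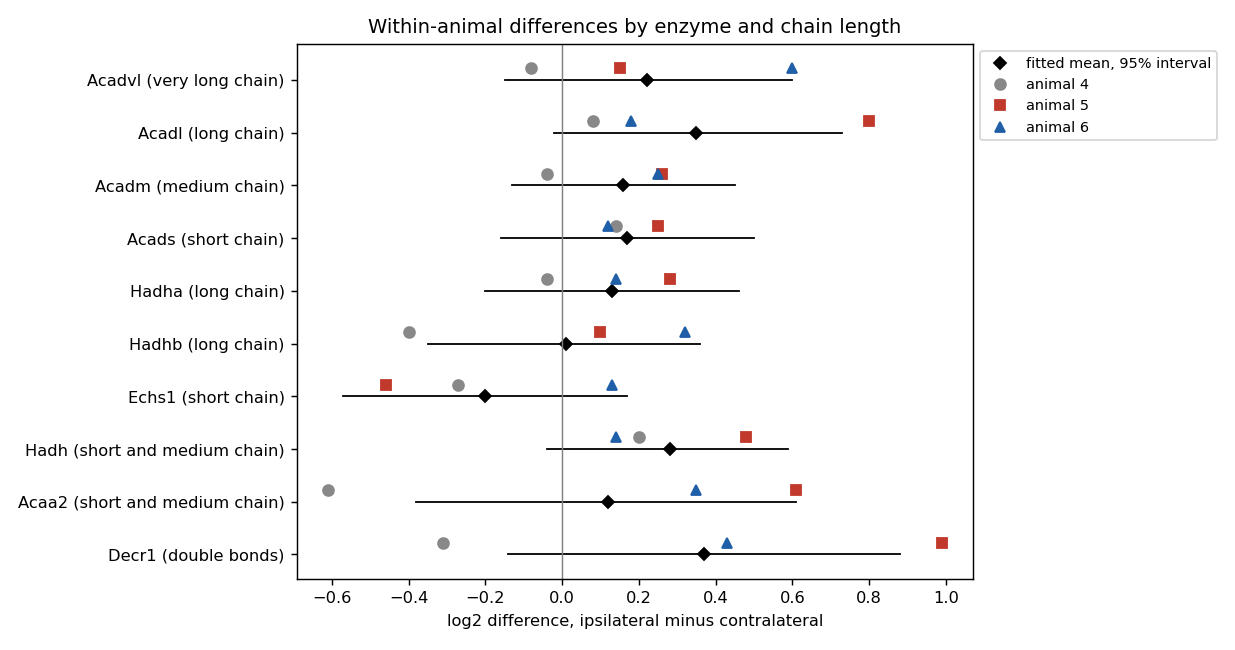
Log2 difference, ipsilateral minus contralateral, of each member in animals 4, 5 and 6 (grey, red and blue symbols), with the mean fitted by limma and its 95% interval in black (n = 3 pairs). All intervals include 0, and the symbols of animal 4 lie at the left for most genes.

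Grouped by chain length, the 4 long-chain members (Acadvl, Acadl, Hadha and Hadhb) had a mean difference of 0.18, and the 5 short- and medium-chain members (Acadm, Acads, Echs1, Hadh and Acaa2) a mean of 0.10. For animals 4, 5 and 6 the long-chain mean was -0.11, 0.34 and 0.31, and the short- and medium-chain mean was -0.12, 0.23 and 0.20. Within animals the long-chain mean exceeded the other by 0.01, 0.11 and 0.11, in the same direction in all 3. The mean excess was 0.07, with an SD of 0.06 between animals. The shared direction rests on Echs1, the 1 member with a fitted difference below 0, at -0.27, -0.46 and 0.13 in animals 4, 5 and 6. The classes themselves varied more between animals, with an SD of 0.25 for the long-chain and 0.19 for the short- and medium-chain mean. The members of a class were measured on the same 6 arrays and are not replicates, and no test was made of the classes. Each class had a mean below 0 in animal 4 and above 0 in animals 5 and 6.

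The counts by animal show the same split. The operated side was higher for 3 of the 10 members in animal 4, for 9 in animal 5 and for all 10 in animal 6, while among all tested probe sets it was higher for 47.0%, 46.2% and 51.2%. Their median difference was -0.06, 0.27 and 0.22 in the same order of animals, and that of all tested probe sets was -0.02, -0.03 and 0.01. In all 3 animals 3 members (Acadl, Acads and Hadh) were higher, against 12.3% of all probe sets, and 0 were lower, against 15.1%. In both animals 5 and 6, 9 members were higher, against 29.2% of all probe sets. This pair of animals was picked out by the members' own directions. The members also share the same arrays, so the contrast is a description.

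Among the ipsilateral muscles, animal 4 was lowest for all 10 members and animal 6 highest for 8. Among the contralateral muscles, animal 6 was highest for 8 members and animal 5 lowest for 5. These orders were not counted over all probe sets. Animal 4 was also the lowest ipsilateral muscle and animal 6 the highest for Dld of the citric acid cycle (907.5, 1248.3 and 1458.4 in animals 4, 5 and 6). Cox8b of the respiratory chain had the same order (3685.2, 4034.6 and 4464.6). For Idh3a (911.5, 711.6 and 946.3) and Ndufs6 (2468.0, 2365.5 and 2667.2) animal 5 was lowest. Averaged over the members after each was centred on its own mean, the log2 level was -0.33, 0.19 and 0.38 in ipsilateral 4, 5 and 6, against -0.19, -0.16 and 0.11 in contralateral 4, 5 and 6. The SD between animals exceeded the size of the fitted difference for 8 of the 10 members, a count that was not made over all probe sets.

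**Figure D3:**
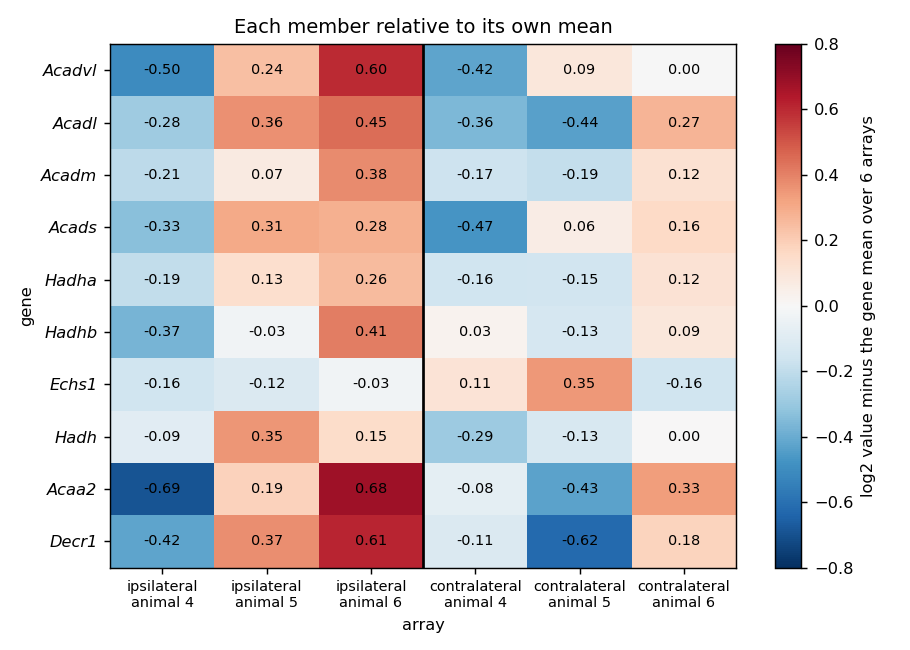
Log2 value of each member minus its mean over the 6 arrays (columns; the black line divides ipsilateral from contralateral arrays). Ipsilateral 6 is the highest array for 7 members and ipsilateral 4 the lowest for 5.

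The arrays also differed in technical values. The 3' probe set of the cre hybridisation spike had intensities of 1476.2 and 1116.9 in ipsilateral and contralateral 4, against 2480.8 to 3605.1 in the muscles of animals 5 and 6. For beta-actin the ratio of 3' over middle probe set, a sign of RNA quality, was 2.87 in ipsilateral 6 and 2.77 in contralateral 4, against 1.36 to 1.68 elsewhere; the same ratio for Gapdh was 1.02 to 1.21 on all arrays. Ipsilateral 4 also had the highest summed intensity of 7 spermatid genes, 1121.3, against 197 and 481 in ipsilateral 5 and 6 and 127 to 313 contralaterally. The part of these values in the members' differences was not tested. Unpaired and without the arrays of high actin ratio, contralateral 4 and ipsilateral 6, the members' median was -0.08, with different animals left in the groups. In animal 5, whose arrays both lacked the high ratio, it was 0.27.

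The electrons removed in the first step pass to electron transfer flavoprotein, made of Etfa and Etfb, and from it through the dehydrogenase Etfdh to ubiquinone. Etfa had 972.3, 1255.8 and 1314.0 ipsilaterally, against 795.5, 921.7 and 1179.5 contralaterally, higher in all 3 animals (0.29, SE 0.14; limma, adjusted p = 0.776). Etfb had a difference of 0.39 (SE 0.20) from animal values of -0.26, 0.80 and 0.62. Etfdh differed by 0.22 (SE 0.16), and was higher in all 3 animals.

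Of 24 tested genes of other mitochondrial acyl-CoA enzymes and electron acceptors, 0 passed and 0 had an unadjusted p under 0.05 in limma, and the median difference was 0.07. In this list 4 genes were higher and 3 lower in all 3 animals. Ivd, the isovaleryl-CoA dehydrogenase of leucine breakdown, had 385.2, 340.8 and 365.4 ipsilaterally, against 280.1, 239.3 and 336.5 contralaterally, without overlap; it differed by 0.35 (SE 0.16), and Bckdhb, a subunit of the branched-chain keto acid dehydrogenase, by -0.21 (SE 0.15). Eci1 and Eci2, the isomerases that work with Decr1 on unsaturated chains, differed by 0.09 (SE 0.18) and 0.12 (SE 0.18).

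Upstream of the spiral, 19 genes of fatty acid uptake, activation and carnitine entry had a median difference of 0.17, and of -0.11, 0.20 and 0.18 by animal. In limma's fit 0 passed, and 3 had an unadjusted p under 0.05, all with the operated side higher. Cd36, the fatty acid transporter, had 393.8, 788.4 and 762.7 ipsilaterally, against 264.4, 403.2 and 649.8 contralaterally, a difference of 0.57 (SE 0.17; adjusted p = 0.553). Lpl, the lipase that frees fatty acids from circulating lipoproteins, had 801.6, 1495.5 and 1543.6 ipsilaterally, against 886.9, 845.5 and 950.7 contralaterally, a difference of 0.45 (SE 0.19). Acsl4, an acyl-CoA synthetase, differed by 0.46 (SE 0.20), with -0.11 in animal 4. Slc25a20, the carnitine-acylcarnitine carrier of the inner membrane, differed by 0.30 (SE 0.15) and was higher in all 3 animals. The carnitine palmitoyltransferases gave 0.22 (SE 0.15) for Cpt1b, the muscle form on the outer membrane, and 0.01 (SE 0.17) for Cpt2, and both were below 0 in animal 4.

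The peroxisomal pathway, which shortens very long and branched chains with its own enzymes, had a median difference of 0.03 over 10 tested genes, none with an unadjusted p under 0.05 in limma. Catalase (Cat), which removes the peroxide made there, differed by 0.27 (SE 0.15) and was the 1 gene of this list higher in all 3 animals. Abcd3, a transporter of the peroxisomal membrane, differed by -0.26 (SE 0.17).

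Of the regulators, the probe sets of Ppara and Ppargc1a, the receptor PPAR-alpha and the coactivator PGC-1alpha, were too dim to be tested. Ppara lay at 4.7 to 5.8 ipsilaterally and 4.2 to 5.2 contralaterally, and Ppargc1a at 1.2 to 1.9 ipsilaterally and 1.8 to 4.3 contralaterally. Rxrg, a retinoid X receptor that pairs with the PPARs, had 363.8, 264.6 and 334.0 ipsilaterally, against 513.5, 416.6 and 437.7 contralaterally. The groups did not overlap, and its difference was -0.49 (SE 0.15; limma, adjusted p = 0.558). Prkaa1, a catalytic subunit of AMP-activated kinase, had 332.6, 281.3 and 236.3 ipsilaterally, against 198.1, 155.8 and 185.8 contralaterally. Here too the groups did not overlap, with a difference of 0.61 (SE 0.16; limma, adjusted p = 0.529), but its other probe set was too dim to be tested. Prkaa2, another catalytic subunit of this kinase, differed by -0.59 (SE 0.43), with 1.07, -0.93 and -1.91 in animals 4, 5 and 6. Lpin1, which acts as a coactivator and in lipid synthesis, differed by -0.55 (SE 0.22), with 0.03 in animal 4. Ppard had 136.0, 127.7 and 118.4 ipsilaterally, against 163.3, 158.6 and 139.3 contralaterally, also without overlap. Its difference was -0.24 (SE 0.15; limma, adjusted p = 0.809), and its other probe set was too dim to be tested. Esrra, the gene of ERR-alpha, differed by 0.02 (SE 0.15), with mixed directions. Over the 13 tested regulators the median was 0.02, at -0.01, 0.18 and -0.06 in animals 4, 5 and 6, and 1 higher and 2 lower genes had an unadjusted p under 0.05.

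Of 9 tested genes that are known to respond to PPARs but lie outside the pathway, 0 passed, and the median difference was 0.00, at -0.04, -0.25 and 0.17 by animal. Pdk2, which shuts pyruvate dehydrogenase, differed by -0.47 (SE 0.18) at its brighter probe set and by -1.04 (SE 0.23; limma, adjusted p = 0.333) at the other, and Ucp3, the muscle uncoupling protein, by -0.37 (SE 0.18) with 0.08 in animal 4. Slc25a34, a mitochondrial carrier, differed by 0.54 (SE 0.23), with -0.21 in animal 4.

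The 17 tested citric acid cycle genes had a median difference of 0.05, with -0.11, 0.04 and 0.14 in animals 4, 5 and 6. The 24 tested respiratory chain genes had a median of -0.05, and of -0.24, 0.00 and 0.13 by animal. As with the members, animal 4 had the lowest median of each list, but in animal 5 the members' median of 0.27 stood beside 0.04 for the citric acid cycle and 0.00 for the respiratory chain; the difference between the lists was not tested. Of these 41 genes 0 had an unadjusted p under 0.05 in limma. Sucla2, a subunit of succinyl-CoA synthetase, differed by 0.27 (SE 0.13), Idh3a, of isocitrate dehydrogenase, by -0.25 (SE 0.15) and Ndufa5, of complex I, by 0.64 (SE 0.32).

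**Figure D4:**
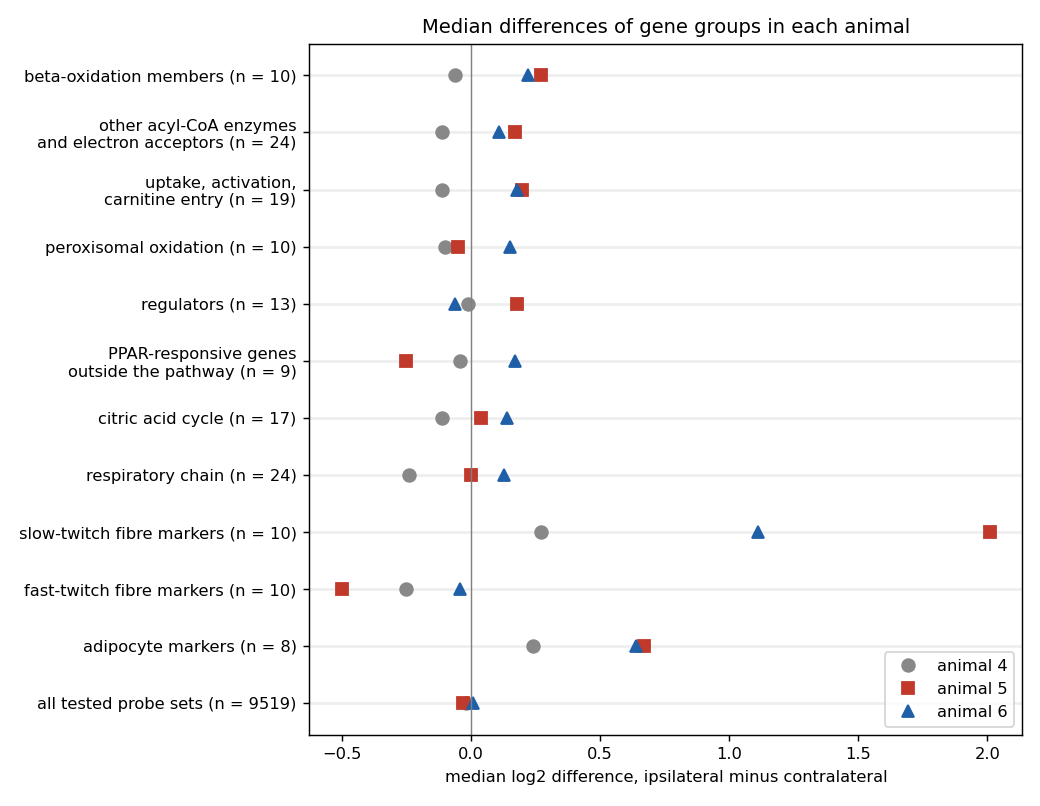
Median log2 difference, ipsilateral minus contralateral, of gene groups in each animal (n, genes tested per group; probe sets in the last line). Animal 4 has the lowest median in 8 of the 11 gene groups shown; the regulators are lowest in animal 6, and the PPAR-responsive and fast-twitch genes in animal 5.

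Of the fibre type markers 0 passed the adjusted test in limma. Of 10 slow-twitch genes 9, all higher on the operated side, had an unadjusted p under 0.05 in limma. So did 3 of 10 fast-twitch genes, all lower there. Over all 9519 tested probe sets it was 6.36% in both directions together, with 340 higher and 265 lower. The marker counts use the brightest probe set of each gene. Further tested probe sets of Myh7, Tnni1 and Casq2 were also under 0.05, whereas those of Myl2, Atp2a2, Tpm3 and Mybpc2 were not. The summed intensity of 10 slow-twitch fibre genes was 14877.6 to 29155.0 ipsilaterally, against 9567.3 to 12543.5 contralaterally, and their median difference by animal was 0.27, 2.01 and 1.11. Csrp3 and Myl2 differed by 1.64 (SE 0.32) and 1.01 (SE 0.19). The summed intensity of 10 fast-twitch genes was 41783.8 to 46926.4 ipsilaterally, against 51872.3 to 58876.2 contralaterally, and their median difference by animal was -0.25, -0.50 and -0.04. The part of fibre type in the members' differences was not tested. The markers of the labelled tissue were bright, with Ckm, the muscle creatine kinase, at 5876.7 to 6662.5 ipsilaterally and 6712.8 to 8246.9 contralaterally.

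Adipocytes also oxidise and store fatty acids. Of their markers 8 were tested, and the brightest probe set of each had a fitted difference above 0, against 4443 of 9519 tested probe sets. The medians of these markers were 0.24, 0.67 and 0.64 in animals 4, 5 and 6. The list holds Slc2a4, the glucose transporter that muscle fibres also express, at 1729.3 to 2343.0 ipsilaterally and 1595.8 to 2143.8 contralaterally. Further tested probe sets differed by -0.10 for Slc2a4, 0.32 for Thrsp and 0.01 for Fasn. The summed intensity of the 12 markers on the array was 3716.6 to 5259.3 ipsilaterally, against 3125.7 to 4162.5 contralaterally; without Slc2a4 it was 1987.3 to 3026.1 ipsilaterally, against 1529.9 to 2018.7 contralaterally. Cfd and Cidea differed by 0.79 (SE 0.16) and 0.86 (SE 0.20), whereas the defining hormone Lep was near 0, at 2.0 to 3.5 ipsilaterally and 2.5 to 3.9 contralaterally, and Plin1 lay at 26.1 to 46.0 ipsilaterally and 25.0 to 37.3 contralaterally. The part of these cells in the members' differences was not tested.

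By their pattern over the 6 arrays, the probe sets most like the mean centred profile of the members were those of Hspd1, Slc4a7, Lrp4, Dipk2a and Ckap5, with Pearson's r of 0.999, 0.999, 0.996, 0.992 and 0.984, out of 8095 named probe sets searched. The profile rests on 6 arrays from 3 animals, so these values are a description. Hspd1, a mitochondrial chaperone, had 1024.8, 1309.7 and 1415.8 ipsilaterally, against 1091.3, 1115.5 and 1269.8 contralaterally. Like the members' mean profile, it was lowest in ipsilateral 4 and highest in ipsilateral 6, and its difference was 0.10 (SE 0.14).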

How the data were processed

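RNA of 6 muscles was measured on 6 arrays. The deposited values are linear intensities, 1 per probe set, whose mean without the lowest and highest 2% came to 150.0 on each of the arrays; the authors' software for them is not stated in the labels or file. Samples were grouped by their titles, with Cont read as contralateral. Of 15923 probe sets, 57 controls were set aside; GEO's platform annotation, possibly outdated, gave 1 symbol for 12789, several for 312 and none for 2822, and a gene table of assembly GRCr8 was used to update names (12756 matched, 1 changed). Promoters came from RefSeq.

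Values were used as log2(intensity + 15.8), the 20th percentile, with no further normalization because array medians lay within 0.117 (log2; limit 0.2). Probe sets with a mean above the 40th percentile, 9519 in all, were tested with limma 3.58.1 in R 4.3.3 (intensity trend, animal as block, Benjamini-Hochberg over all tested probe sets; 2 residual and 7.47 prior degrees of freedom). Both muscles come from 1 animal, which gives the pairing; deviations from the group means correlated at -0.04, 0.07 and 0.13 in animals 4, 5 and 6, across probe sets. The procedure was tested on simulated data. Where a gene had several probe sets, the brightest stood for it. Named were all members and up to 4 tested genes with the smallest p of each pathway list. Up to 2 of each marker list with its defining markers were also named, and the 5 genes most like the members. Others (Etfdh, Eci1, Eci2, Cpt1b, Cpt2, Ppara, Ppargc1a, Ppard, Prkaa2 and Esrra) were named for their role after their values had been seen. Members and lists were chosen with earlier results of these data known. Alternatives covered the block, pseudocount, normalization, filter, variance prior and each animal left out. Plots used matplotlib 3.10.9 (Python 3.11.15).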

Additional observations from a re-analysis of the deposited data

How the results depend on the processing

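The members' median difference of 0.16 lay between 0.16 and 0.17 under other pseudocounts, normalizations and filters, and at 0.08 to 0.29 when each animal was left out in turn; the long-chain mean lay at 0.10 to 0.32 and the short- and medium-chain mean at 0.04 to 0.21. No member passed the adjusted threshold under any alternative run. Leaving out animals changed the counts over all probe sets: 0 to 241 passed the adjusted threshold (241 without animal 4) and 223 to 1491 had an unadjusted p under 0.05. Without the animal as a block, 0 passed and 564 had an unadjusted p under 0.05, so the pairing changed no call. Each gene had 1 tested probe set, so averaging probe sets changed nothing for the members. With each animal left out, Hadhb ranged from -0.15 (without animal 6; -0.04 without animal 5) to 0.21, and Acaa2 from -0.13 (without animal 5) to 0.48; the cause was not tested.

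A pair of alternatives was chosen after seeing the data, both without the block. Without ipsilateral 4 the members' median was 0.39, with 87 probe sets passing and 1156 at an unadjusted p under 0.05. Without contralateral 4 and ipsilateral 6, the arrays of high actin ratio, 1 probe set passed, the members' median was -0.08, the long-chain mean -0.06 and the short- and medium-chain mean -0.08. By its construction this setting compares ipsilateral muscles of animals 4 and 5 with contralateral muscles of animals 5 and 6. The values there were -0.17 for Acadvl, -0.04 for Acadm, -0.12 for Acads, -0.01 for Hadha, -0.18 for Hadhb and -0.21 for Acaa2, while Acadl (0.12), Hadh (0.19), Decr1 (0.20) and Echs1 (-0.23) kept their sign. The median SE over all tested probe sets was 0.16 with 3 pairs.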

Other observations

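Markers of other cells in the muscle were measured beside the enzymes, and 0 of them passed the adjusted threshold in limma. Of 12 tested fibroblast and tendon genes 6 were higher and 1 lower in all 3 animals, with a median of 0.30 and differences of 1.46 (SE 0.25) for Mfap4 and 0.68 (SE 0.15) for Tnmd, both genes of the extracellular matrix or tendon. Of 13 tested macrophage and immune genes 0 were higher and 5 lower in all 3 animals, with a median of -0.28 (0.05, -0.32 and -0.50 in animals 4, 5 and 6), -0.52 (SE 0.16) for Cd14 and -0.40 (SE 0.16) for Cd74. The median was 0.18 over 7 endothelial genes (Kdr 0.38, SE 0.15; Esam 0.22, SE 0.15) and 0.35 over 4 Schwann cell genes, where Pmp22 and Mbp, both of myelin, differed by 0.40 (SE 0.15) and -0.38 (SE 0.16). It was -0.13 over 3 erythroid genes (Hbb -0.13, SE 0.12; Alas2 -0.26, SE 0.18). Over 3 tested spermatid genes, of 7 on the array, it was 1.31. Of these, Tnp1 and Odf1 differed by 1.31 (SE 0.18) and 0.98 (SE 0.21). Their contralateral means of 34.8 and 31.6 lay below the filter of about 42.4. Both genes therefore passed it only through their higher ipsilateral values, which favours a positive median.

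The median was -0.18 over 12 muscle fibre markers and -0.26 over 10 fast-twitch markers. These lists overlap, since Tnnt3, Tnni2, Tnnc2 and Pvalb stand in both. Ttn and Actn2, of the sarcomere's scaffold, differed by 0.35 (SE 0.13) and 0.50 (SE 0.19). Myh4 and Actn3, of fast fibres, differed by -0.92 (SE 0.19) and -0.48 (SE 0.13). The remaining pathway genes among the first 4 of their lists by p were Hsd17b4 (0.10, SE 0.17) and Acox2 (0.11, SE 0.18) of peroxisomes, with unadjusted p in limma of 0.563 and 0.569, Rxra (-0.63, SE 0.33), Txnip (-0.28, SE 0.14), Dld (0.29, SE 0.17), Mdh2 (-0.21, SE 0.13), Ndufv1 (0.21, SE 0.13), Ndufs6 (-0.19, SE 0.12) and Cox8b (-0.17, SE 0.13).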
